A study of Mus musculus with 13 samples.

Results

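The 10 Sox genes Sox1, Sox7, Sox8, Sox9, Sox10, Sox11, Sox14, Sox17, Sox18 and Sox21 of the mouse were followed in chromatin of embryonic stem cells (ESCs) with and without the nuclear RNA-binding proteins SAFB1 and SAFB2. All deposited promoter rows named for these 10 genes were taken, which gave 14 of 77527 rows. The regions of trimethylated lysine 27 on histone H3 (H3K27me3) that overlap those rows were added, which gave 11 of 57909 regions. Each gene had 1 region, apart from Sox8 with a pair. The wild type (WT) was a male CAST/B6 ESC line with a recombination site at Rosa26, and the other genotype was the SAFB1/2 double knockout (DKO). Both genotypes had 3 days of doxycycline and 0.6% formaldehyde. H3K27me3 was measured in 5 WT and 4 DKO libraries, and total H3 in 2 WT and 2 DKO libraries.

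As a model the DKO rests on few clones. Replicate 1 for H3K27me3 came from clone 4 and every other DKO library from clone 13. WT replicates 4 and 5 and DKO replicates 3 and 4 carry the word Old or New in their library names, and the sources used here do not say what it means. Library names of WT replicates 1, 4 and 5 share a stem that those of replicates 2 and 3 lack. No label ties replicates to separate cultures, so a p-value here measures the spread between libraries, which may be technical. Depth ran from 798466 to 1427771 counts over promoter rows, from 1818647 to 3134799 over regions for H3K27me3 and from 525847 to 736566 over regions for total H3. The knocked-out genes could not be used to check the labels, since the assay measures a histone mark and not RNA. On the counts-per-million scale (CPM), promoter rows of 9 ESC markers lay between 0 and 107.6 CPM in WT, with Pou5f1 at 4.94 ± 2.93 CPM (SD, n = 5) and Klf4 the highest. A row listed at 0, such as that of Nanog, does not show a low mark, since reads touching several rows were counted in none. Those of 8 fibroblast markers lay between 0.159 and 99.8 CPM. Those of 4 neural progenitor markers lay between 1.39 and 229 CPM, and those of 4 trophoblast markers between 12.1 and 377 CPM. List medians in WT were 4.94 (ESC), 12.8 (fibroblast), 68.0 (neural progenitor) and 81.6 CPM (trophoblast). The ranges of the lists overlapped, so identity rests on the label.

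Sox proteins are transcription factors that carry the HMG box of SRY, bind the minor groove of DNA and bend it. SoxB1 proteins such as SOX1 keep neural progenitors undifferentiated, SoxB2 proteins (SOX14, SOX21) counter them, SoxC proteins (SOX11) act in maturing neurons, SoxE proteins (SOX8, SOX9, SOX10) in neural crest, glia, cartilage and testis, and SoxF proteins (SOX7, SOX17, SOX18) in endoderm and vessels. H3K27me3 is laid down by Polycomb repressive complex 2 and in ESCs covers broad domains over many silent or weakly transcribed lineage regulators with CpG-rich promoters.

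The promoters of 5 members are in the RefSeq promoter table for build GRCm38.p6, the assembly that mm10 is made from. At 5 of 10 members the start site of the promoter row equals the end of the RefSeq gene from which it is transcribed, and the largest distance between them was 224 bp. The sequences below run from 250 bases before to 50 bases after the RefSeq start, in the direction of transcription, with each CG dinucleotide in capitals. The first 3 belong to neural members whose regions were lower in DKO, and Sox11 is the member whose region lay highest in DKO relative to WT.
Sox1 (chr8:12395269-12395568, plus strand): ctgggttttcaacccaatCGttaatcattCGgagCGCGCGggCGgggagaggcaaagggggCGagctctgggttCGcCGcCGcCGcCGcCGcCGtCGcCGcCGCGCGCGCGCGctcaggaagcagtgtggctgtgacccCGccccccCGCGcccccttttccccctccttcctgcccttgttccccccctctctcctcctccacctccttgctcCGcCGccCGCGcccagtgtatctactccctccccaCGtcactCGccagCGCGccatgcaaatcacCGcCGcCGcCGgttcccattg
Sox14 (chr9:99876121-99876420, minus strand): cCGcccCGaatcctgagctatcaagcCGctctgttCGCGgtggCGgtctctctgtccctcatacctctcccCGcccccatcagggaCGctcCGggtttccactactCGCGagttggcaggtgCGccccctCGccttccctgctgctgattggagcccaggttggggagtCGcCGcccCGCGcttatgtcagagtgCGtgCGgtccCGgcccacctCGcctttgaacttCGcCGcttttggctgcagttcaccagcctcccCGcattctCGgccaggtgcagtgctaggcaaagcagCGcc
Sox21 (chr14:118236981-118237280, minus strand): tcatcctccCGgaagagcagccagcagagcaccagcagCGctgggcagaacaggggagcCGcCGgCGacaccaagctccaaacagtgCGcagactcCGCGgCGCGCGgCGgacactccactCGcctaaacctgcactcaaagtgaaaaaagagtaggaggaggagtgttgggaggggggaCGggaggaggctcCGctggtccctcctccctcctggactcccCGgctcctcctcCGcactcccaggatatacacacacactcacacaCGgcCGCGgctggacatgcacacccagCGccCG
Sox11 (chr12:27342669-27342968, minus strand): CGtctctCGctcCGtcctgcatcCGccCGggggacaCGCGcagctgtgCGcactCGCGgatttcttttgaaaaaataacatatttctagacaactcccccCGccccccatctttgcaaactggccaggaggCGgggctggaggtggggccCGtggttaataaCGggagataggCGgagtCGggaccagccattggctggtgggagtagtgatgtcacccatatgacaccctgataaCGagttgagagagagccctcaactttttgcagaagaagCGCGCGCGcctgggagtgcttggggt

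Sox1 held 37 CG dinucleotides in its 300 bases, more than 94.4% of the 32851 promoters in the table. Sox14 held 26 (more than 83.1% of promoters), Sox21 held 22 (76.9%), and Sox8 and Sox11 held 21 each (75.2%), against a median of 7. All 300 bases of the Sox1, Sox14, Sox21 and Sox11 promoters lay inside an H3K27me3 region. At Sox8 only 59 of 300 bases did. Neither ACAAAG nor ACAATG, a pair of sequences that Sox proteins can bind, was found in these 5 windows on either strand. At least 1 of them occurs in 28.6% of all promoters in the table, so these letters are absent from most windows of this length. Other sequences that Sox proteins can bind were not searched for.

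The regions differed in span and in position around the start sites, as the map of regions shows. Sox1 lay in the longest, 24.2 kb on chromosome 8 (chr8:12380179-12404409), which also spans promoter rows of Sox1ot, Gm25239 and Gm45560 and reaches 15.12 kb upstream of the start. Sox21 (chr14:118222374-118238923) had 14.66 kb of its region downstream and 1.893 kb upstream. Sox14 (chr9:99865405-99880620), Sox17 (chr1:4487593-4502829) and Sox9 (chr11:112774510-112791113) lay in regions of 15.2, 15.2 and 16.6 kb. Shorter regions of 7.63 to 9.46 kb covered Sox18 (chr2:181667338-181674962), Sox11 (chr12:27336772-27344532), Sox7 (chr14:63938287-63946979) and Sox10 (chr15:79157989-79167449). At Sox8 the start site sat 9 bp inside the edge of a 2.6 kb region over the gene (chr17:25568099-25570695), and another region, of 3.62 kb, began 483 bp upstream (chr17:25571169-25574789). All 11 regions were on the authors' list of regions shared by both genotypes. The coordinates are those of mm10.

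**Figure D1:**
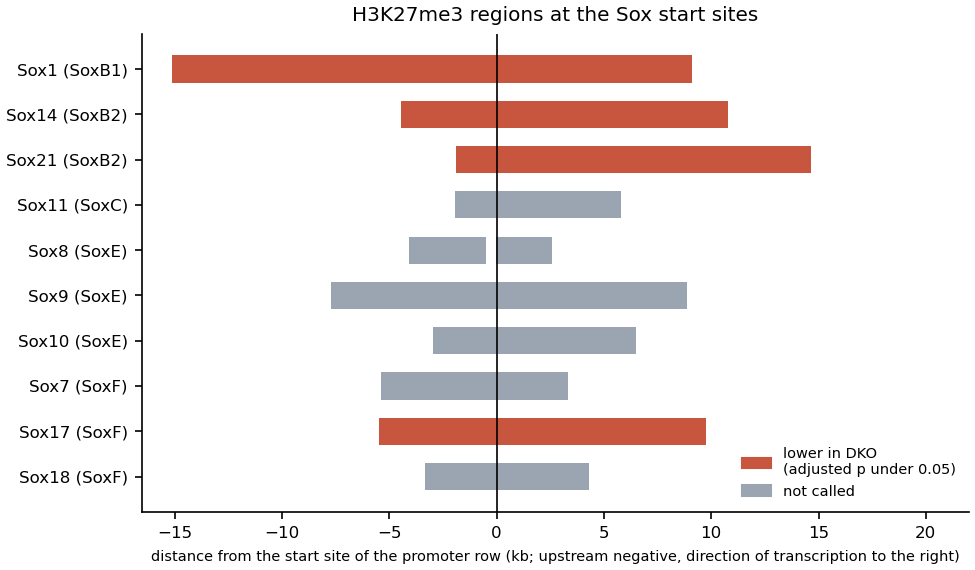
Extent of the H3K27me3 regions at the 10 Sox genes, as distance in kb from the start site of the promoter row (upstream negative). Red bars mark the 4 regions lower in DKO, which include the longest, at Sox1 (24.2 kb), and the 2 bars at Sox8 leave the bases just upstream of its start uncovered.

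Levels per length in WT spanned a wide range among the members. Sox1 had 43.2 ± 2.80 CPM per kb (SD, n = 5), and 0.258% of the 26392 shared regions of at least 500 bp were denser. Sox14 followed at 39.3 ± 1.95 CPM per kb (0.447% denser), and the WT libraries of these top members overlapped. After a gap came Sox21 at 31.3 ± 2.14, the Sox8 region over the gene at 28.5 ± 2.84, Sox18 at 26.5 ± 1.25, Sox17 at 25.8 ± 1.67, Sox9 at 23.2 ± 1.09 and Sox7 at 22.7 ± 1.26 CPM per kb (SD, n = 5 each). Sox10 (17.2 ± 2.67), Sox11 (15.2 ± 0.914) and the upstream Sox8 region (11.6 ± 1.46) were the least dense, with 9.07%, 12.4% and 24.8% of shared regions above them. Neighbours in this order had overlapping WT libraries, with the exceptions of Sox14 above Sox21 and of Sox11 above the upstream Sox8 region.

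The first comparison asked whether H3K27me3 over these regions differed between DKO and WT. It was lower in DKO over the regions of the SoxB genes Sox1, Sox14 and Sox21 and of the SoxF gene Sox17, by 16.6% to 19.1%. Those of Sox7, Sox8, Sox9, Sox10, Sox11 and Sox18 did not pass the test. Leaving out 1 library moved the number of all regions called from 1630 to between 623 (without DKO replicate 3) and 2882 (without WT replicate 1). The 4 calls of 11 compare with 1.88% of the 40418 regions tested that were lower in DKO, 2.16% that were higher and 4.03% that changed in either direction (edgeR quasi-likelihood test, Benjamini-Hochberg adjusted p under 0.05). Values are region counts scaled to CPM by TMM.

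At Sox1, whose protein holds neural progenitors in their state, the 5 WT libraries had 1018, 1159, 1015, 1061 and 985 CPM and the 4 DKO libraries 912, 846, 775 and 878 CPM. Every DKO library lay below every WT library, the clone 4 library included, which was the highest of the DKO libraries. The WT mean was 1047 ± 67.8 CPM (SD, n = 5) and the DKO mean 852 ± 58.4 CPM (SD, n = 4). On the log2 scale DKO differed by -0.30 (SE 0.05, edgeR adjusted p = 3.43e-05).

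Sox14, a SoxB2 gene of interneuron lineages, had 632, 621, 559, 579.7 and 597 CPM in WT and 519, 477, 453 and 487 CPM in DKO. The groups did not overlap here either, and the clone 4 library was again the highest of the DKO. Mean levels at Sox14 were 598 ± 29.7 CPM in WT (SD, n = 5) and 484 ± 27.6 CPM in DKO (SD, n = 4), and the difference on the log2 scale was -0.31 (SE 0.06, edgeR adjusted p = 0.000189).

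Sox21, the other SoxB2 gene, had 543, 557, 524, 493 and 471 CPM in WT and 425, 419, 389.7 and 444 CPM in DKO. Its highest DKO library stayed under its lowest WT library. In WT the mean was 517 ± 35.3 CPM (SD, n = 5), in DKO 419 ± 22.5 CPM (SD, n = 4), which is -0.30 in log2 (SE 0.06, edgeR adjusted p = 0.00051).

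Sox17, a driver of endoderm and of arterial and haemogenic endothelium, had 422, 384, 360.5, 415 and 381 CPM in WT and 332, 325, 311 and 342 CPM in DKO. The DKO libraries lay close together and all below WT. The means of 392 ± 25.5 CPM in WT (SD, n = 5) and 328 ± 13.0 CPM in DKO (SD, n = 4) differed by -0.26 in log2 (SE 0.07, edgeR adjusted p = 0.00781). Without DKO replicate 2 the change stood at -0.25 (edgeR adjusted p = 0.0503) and without DKO replicate 3 at -0.23 (edgeR adjusted p = 0.0599). Its call was thus lost when either was left out. Those fits also called fewer regions in all, 730 and 623 in place of 1630, and the cause of the loss was not tested. The calls at Sox1, Sox14 and Sox21 held when any 1 library was left out. In these 4 regions, and in 0 of the other 7, every DKO library lay below every WT library, as in 3.4% of all regions tested. In bulk chromatin, a smaller share of cells with the mark and less of the mark per cell cannot be told apart. Nor can either be told from a difference in how well the libraries were enriched for the mark. CPM is relative to the other counts of a library, so these differences do not measure an absolute loss of the mark.

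**Figure D2:**
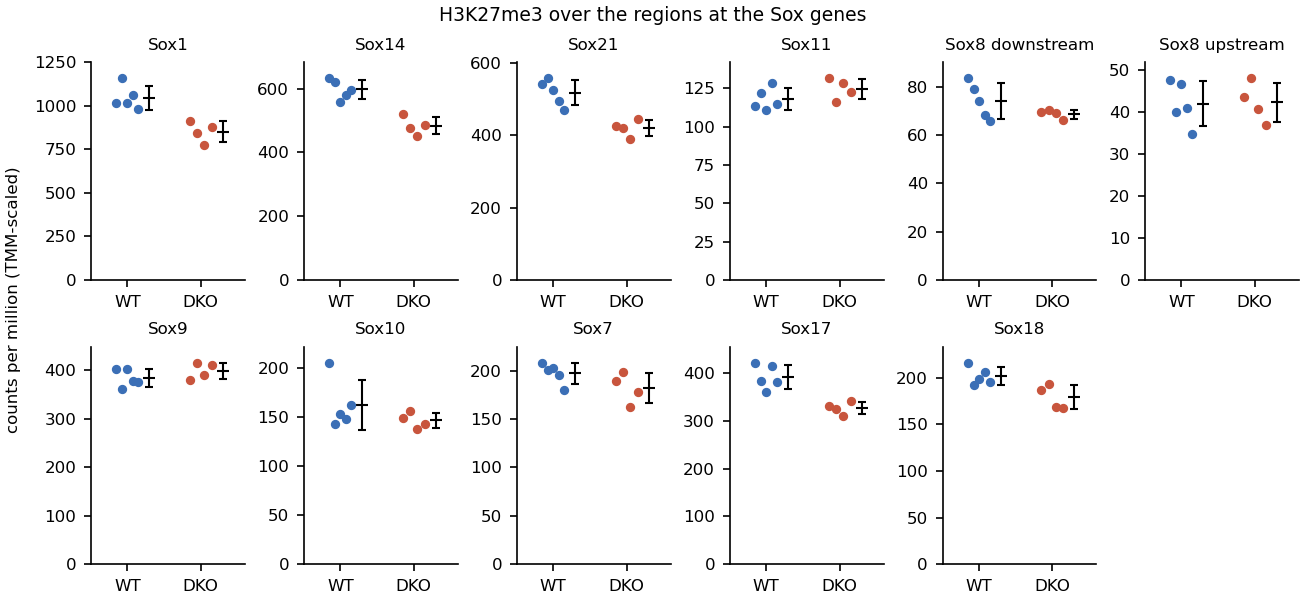
H3K27me3 in CPM over the 11 regions, with 1 point per library (WT blue, DKO red) and the mean ± SD in black, each axis starting at 0. At Sox1, Sox14, Sox21 and Sox17 the red points lie below all blue points, while the points of the other regions overlap.

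Among the other SoxF genes, which act with Sox17 in vessels, Sox18 had 216, 193, 199, 206 and 195 CPM in WT and 187, 194, 169 and 168 CPM in DKO. DKO replicate 2 was the only library of DKO within the WT range. Sox18 differed by -0.18 in log2 (SE 0.08, unadjusted p = 0.0256, edgeR adjusted p = 0.185). Sox7 had 198 ± 10.9 CPM in WT (SD, n = 5) and 182 ± 15.6 CPM in DKO (SD, n = 4), or -0.12 in log2 (SE 0.08). That of Sox17 minus that of either paralog was not tested.

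The SoxE genes gave no call. Sox10, needed for glia and pigment cells, had 206, 143, 153, 149 and 163 CPM in WT and 149, 157, 138 and 143 CPM in DKO. WT replicate 1 stood above all other libraries there, and the log2 fold change was -0.15 with SE 0.08, or -0.057 without that library. For Sox8 the region over the gene had 74.1 ± 7.38 CPM (SD, n = 5) and 68.7 ± 1.85 CPM (SD, n = 4), and the upstream region 42.1 ± 5.29 and 42.3 ± 4.72 CPM. Their log2 fold changes were -0.10 with SE 0.11 and 0.01 with SE 0.13. Sox11, the SoxC gene, had 118 ± 7.10 CPM in WT (SD, n = 5) and 125 ± 6.73 CPM in DKO (SD, n = 4), at 0.08 with SE 0.09. For none of these was the difference between means larger than the SD of the WT libraries. At Sox10 and the Sox8 region over the gene it was larger than the SD of the DKO libraries.

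Sox9, which directs cartilage and testis formation, lies on chromosome 11. Its region had 404, 362, 403, 378 and 377 CPM in WT and 381, 416, 389 and 411 CPM in DKO. The groups overlapped, at 0.05 in log2 (SE 0.06, edgeR adjusted p = 0.681). Chromosome 11 as a whole was higher in DKO. The median log2 fold change of its 2720 regions was 0.41 for H3K27me3, against -0.02 over all regions, and 0.31 for total H3. Relative to the other chromosomes, chromosome 11 stood 0.21 to 0.32 above the mean of all libraries in the DKO libraries of clone 13, 0.05 above it in that of clone 4 and 0.05 to 0.27 below it in WT, on the log2 scale. With this chromosome-wide difference taken out, Sox9 stood at -0.34 (edgeR adjusted p = 7.01e-05), and 5 member regions were lower in place of 4.

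The level of the mark, as CPM summed over a whole region, also went with its change. Such a level depends on the length of the region. Per kb, the Sox8 region over the gene (28.5 CPM per kb) and Sox18 (26.5) stood above Sox17 (25.8) in WT and were not called. The 4 lowered Sox regions, and Sox9, are among the 250 regions of the genome with at least 363.6 CPM. This cutoff is the mean of Sox17, the lowest called Sox region, over the 9 libraries. Of these 250 regions 171 (68.4%) were lower in DKO and 3 (1.2%) higher, with a median log2 fold change of -0.25. Off chromosome 11 it was 170 of 226 (75.2%), and on chromosome 11 it was 1 of 24 (4.17%) with 3 higher. Over the 4577 regions at or above the lowest Sox region in mean level, 8.76% were lower. Since the cutoff of 363.6 CPM came from the lowest called Sox region, all 4 lowered regions lie above it by construction. That 4 of the 5 Sox regions above it were lowered is therefore no test against the 68.4%. When the trend of each library along the level was removed, which takes away any change that regions of one level have in common, Sox1 stood at -0.07, Sox14 at -0.12, Sox17 at -0.11 and Sox21 at -0.13, and none of them passed (edgeR adjusted p of 0.155 to 0.400). Sox9 then stood at 0.21 and passed as higher (edgeR adjusted p = 0.0146). So the direction at Sox9 depended on whether the regions of its chromosome or those of its level served as the reference.

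**Figure D3:**
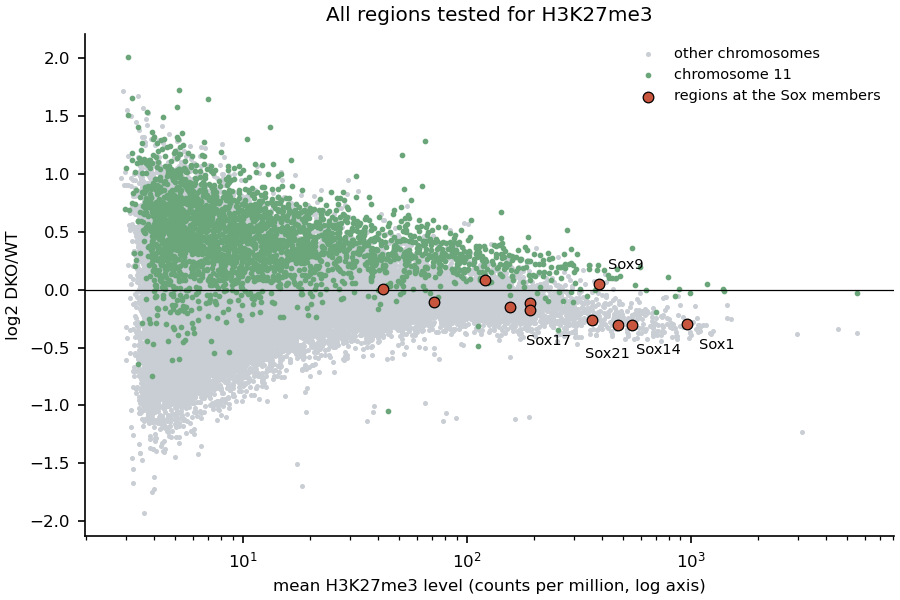
Log2 fold change (DKO over WT) of every region tested against its mean H3K27me3 level in CPM on a log axis, with chromosome 11 in green and the 11 Sox regions in red. Sox1, Sox14, Sox21 and Sox17 lie with the other regions of high level below 0, and Sox9 lies at 0.05 among the green points.

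Library sets were compared as well. Among the 5 libraries with neither Old nor New in the name, Sox1 stood at -0.28 and Sox21 at -0.36, and both passed, while Sox14 (-0.28) and Sox17 (-0.25) did not. Among the 4 libraries with either word Sox1 stood at -0.30 and Sox14 at -0.32, and both passed, while Sox17 (-0.28) and Sox21 (-0.20) did not. All 4 regions were lower in each set, and Sox1 passed in each.

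The second comparison asked the same of the promoter rows, which span 3001 bp around a start site. No member row was called. With edgeR 0 of 10 member rows tested passed, 1 had an unadjusted p under 0.05 and DESeq2 called 0, while 0.628% of the 32647 rows tested were called by edgeR. Of the 14 rows, 4 had too few reads to be tested (3 of the 4 Sox17 rows and 1 of the 2 Sox10 rows). The 7 of 10 log2 fold changes below 0 compare with 51.9% of all rows tested, and the members' median was -0.15 against -0.01 for all rows. No member row had all DKO libraries below all WT libraries, which 1.61% of rows had.

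Sox14 came nearest. Its row had 403, 345, 359, 312 and 334 CPM in WT and 315, 289.6, 254 and 322 CPM in DKO. Only WT replicate 4 overlapped the DKO range, and the log2 difference was -0.25 (SE 0.10, unadjusted p = 0.0169, edgeR adjusted p = 0.340). When only rows that overlap an H3K27me3 region were tested, Sox14 passed at -0.28 (edgeR adjusted p = 0.0292), the only member row to do so.

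The other SoxB rows had log2 fold changes of -0.15 with SE 0.14 at Sox1 (90.6 ± 13.6 CPM in WT, n = 5, and 80.9 ± 10.2 CPM in DKO, n = 4, SD) and -0.09 with SE 0.17 at Sox21 (51.9 ± 8.25 and 47.2 ± 7.08 CPM). Sox11 had 112 ± 7.0 CPM in WT and 129 ± 13.0 CPM in DKO, or 0.20 in log2 (SE 0.13). Among the SoxE rows Sox10 stood at -0.27 with SE 0.16 (-0.13 without WT replicate 1), Sox8 at -0.22 with SE 0.21 and Sox9 at 0.06 with SE 0.11. Among the SoxF rows Sox7 stood at -0.15 with SE 0.11, Sox18 at -0.14 with SE 0.11 and Sox17 at 0.07 with SE 0.24. All of these groups overlapped.

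Row overlap set part of these levels. A read touching several promoter rows was counted in none, and the bases free of another row were 1108 of 3001 at Sox1, 1150 at Sox21, 804 at Sox8, 597 at Sox17 and 568 at Sox10. The rows of Sox7, Sox9, Sox11, Sox14 and Sox18 were free over all 3001 bp. So the lead Sox17 row held 170 reads in all 9 libraries together, while its region held 7859, and its row value says little of the change in the region. The untested rows had 0, 0 and 50 free bases at Sox17 and 174 at Sox10, so their few reads do not show a low mark.

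Of the 3 other promoter rows inside the Sox1 region 1 was called. The row of Gm45560 had 404 ± 27.4 CPM in WT (SD, n = 5) and 309 ± 24.9 CPM in DKO (SD, n = 4), with every DKO library below every WT library. It passed at -0.39 with SE 0.10 (edgeR adjusted p = 0.0315), a call that ended on leaving out any of WT replicates 2, 3 and 5 and DKO replicates 2, 3 and 4 (-0.41 to -0.34). Sox1ot, the transcript that overlaps Sox1, stood at -0.33 with SE 0.10 (edgeR adjusted p = 0.110), and Gm25239 at -0.27 with SE 0.14 (edgeR adjusted p = 0.483). These rows were picked for their place in the Sox1 region after their values were seen.

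**Figure D4:**
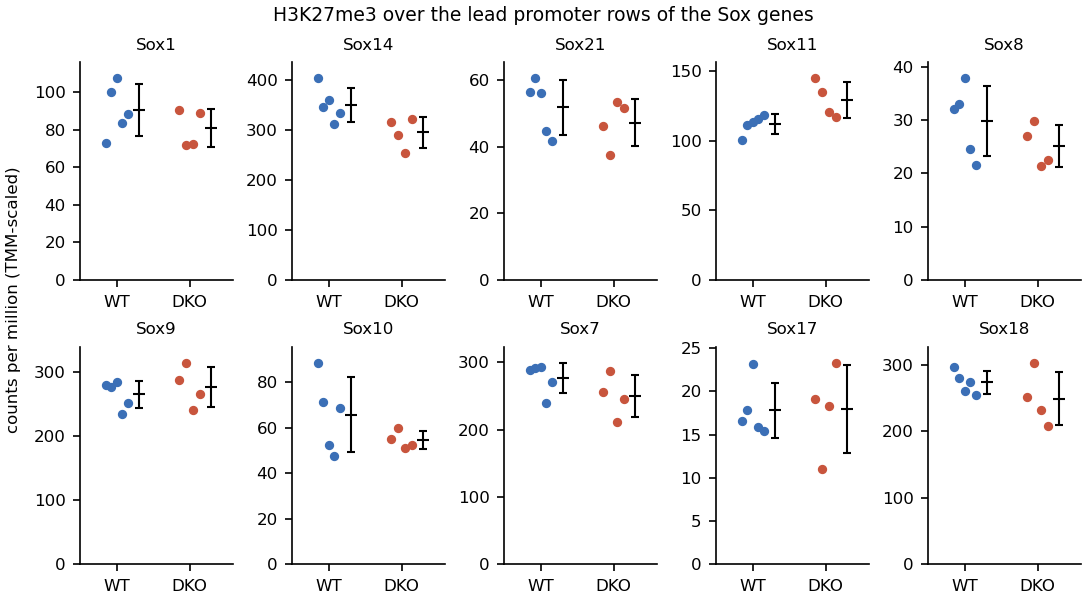
H3K27me3 in CPM over the lead promoter row of each Sox gene (its row of highest mean level), with 1 point per library (WT blue, DKO red) and the mean ± SD in black, each axis starting at 0. WT and DKO points overlap in all 10 panels, and Sox14 (351 and 295 CPM) comes nearest to separation.

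The third comparison set the mark against total H3 in the same regions. Total H3 itself gave no call at the members. In this test 0 of 11 passed, 0 had an unadjusted p under 0.05 and DESeq2 called 0 of all regions, while edgeR called 0.0211% of 18938 regions. At Sox1 the WT libraries had 346 and 363 CPM and the DKO libraries 402 and 391 CPM, so the DKO lay above WT, at 0.16 with SE 0.12 on the log2 scale. At Sox14 the values were 206 and 205 CPM in WT and 176 and 217 CPM in DKO. At Sox21 they were 251 and 201 CPM in WT and 208 and 232 CPM in DKO, and at Sox17 they were 231 and 237 CPM in WT and 263 and 221 CPM in DKO. These 3 genes overlapped between groups, at -0.04, -0.02 and 0.03. Sox9 had 277 and 268 CPM in WT and 294 and 286 CPM in DKO, at 0.09 with SE 0.13. In 4 of 11 regions both DKO libraries lay above both WT libraries, as in 17.2% of all regions, and in 1 both lay below, as in 17.6%.

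The ratio of H3K27me3 to total H3 went down at Sox1 from 2.95 in WT to 2.15 in DKO. Ratios given here divide group mean CPM scaled within each antibody. The log2 differences come from the joint fit of all 13 libraries, so the ratios do not give them exactly. At Sox1 the log2 difference was -0.48 with SE 0.14. Its unadjusted p was 0.000464 and it did not pass over all regions (edgeR adjusted p = 0.336). The ratio was 2.91 and 2.46 at Sox14, 2.29 and 1.91 at Sox21 and 1.68 and 1.35 at Sox17, with log2 differences of -0.28, -0.30 and -0.32 and SEs of 0.17 each. Single H3 libraries moved these: Sox14 stood at -0.097 without DKO H3 replicate 2, Sox21 at -0.14 without WT H3 replicate 2 and at -0.46 without WT H3 replicate 1, and Sox17 at -0.21 without DKO H3 replicate 1. At Sox9 it was 1.41 and 1.37, with a log2 difference of -0.06 and SE 0.16. For 8 of 11 regions the difference was below 0, as in 50.5% of all regions tested, none passed and 1 (Sox1) had an unadjusted p under 0.05, while 0.00184% of the 54290 regions tested were called. The SEs of these differences were more than those of the H3K27me3 test, with 382 to 706 H3 reads in all 4 libraries at Sox1, Sox14, Sox17 and Sox21.

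**Figure D5:**
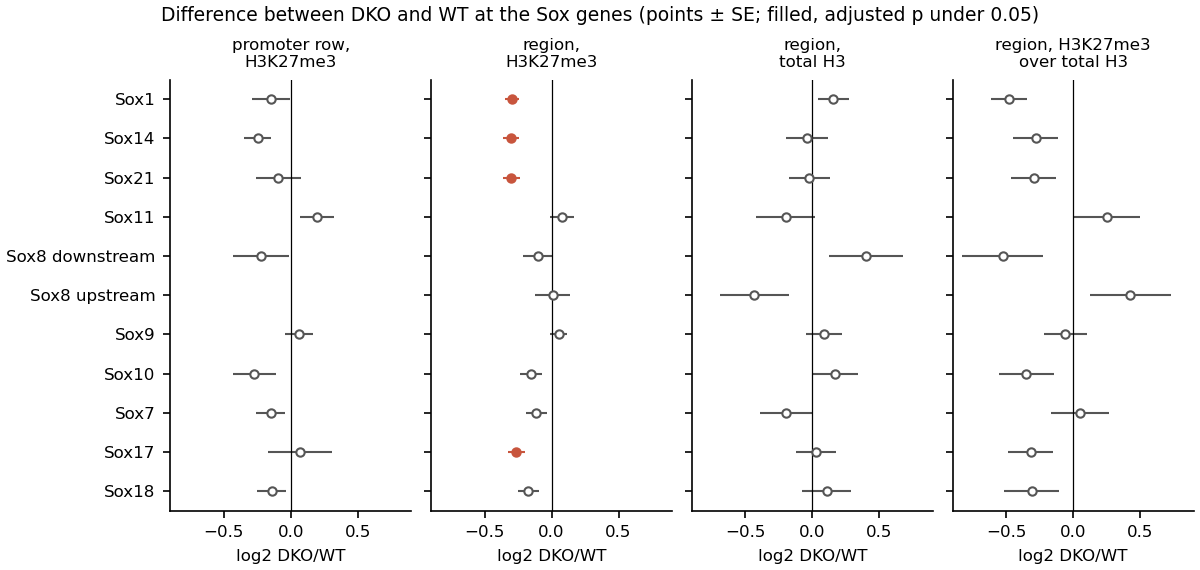
Log2 difference between DKO and WT with SE for the lead promoter row, for the region in H3K27me3 and in total H3, and for the ratio of H3K27me3 to total H3. Filled red points passed the test and are found at 4 regions in the H3K27me3 panel only.

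The other Sox genes served as a comparison within the family. Sox6, which works with Sox9 in cartilage, fell over its region (chr7:116033286-116042655), where WT had 327 ± 7.08 CPM (SD, n = 5) and DKO 268 ± 17.2 CPM (SD, n = 4). The log2 difference was -0.29 (SE 0.07, edgeR adjusted p = 0.00497), and the groups did not overlap. Sox4, the SoxC partner of Sox11, rose over its region (chr13:28950094-28953650) with 41.1, 64.8, 56.3, 74.5 and 45.0 CPM in WT and 74.9, 91.5, 70.7 and 69.2 CPM in DKO. WT replicate 4 lay within the DKO range, and the log2 difference was 0.44 (SE 0.11, edgeR adjusted p = 0.0095). The call of Sox4 was lost without DKO replicate 2 (0.36) or WT replicate 5 (0.36), and that of Sox6 without DKO replicate 2 (-0.24) and with the trend along the level removed (-0.15). Among libraries with neither Old nor New Sox6 (-0.34) did not pass, and among those with either word neither Sox6 (-0.23) nor Sox4 (0.25) did. Sox3 (-0.21), Sox5 (-0.41), Sox13 (0.10) and Sox30 (0.29) did not pass over their regions. Sox30 is on chromosome 11, its groups did not overlap, and it was called higher in 6 of 21 alternatives, among them library totals (edgeR adjusted p = 0.00674) and DESeq2 (adjusted p = 0.0446), but stood at -0.10 with the chromosome-wide difference taken out.

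At the promoter rows of these genes 0 of 6 tested passed with edgeR, while 3 had an unadjusted p under 0.05. They were Sox4 at 0.46 with SE 0.14, Sox30 at 0.44 with SE 0.13 and Sox6 at -0.23 with SE 0.11. Of 22 alternatives 3 called Sox4 and 4 called Sox30. The lowest value of the Sox30 row among them was 0.15. Sox30 lies on chromosome 11, where the median log2 fold change of all promoter rows tested was 0.29. Sox3 had 31.7 ± 5.72 and Sox13 60.9 ± 12.6 CPM in WT (SD, n = 5), and Sox5 lay below both. Sox2, which ESCs express, had 7.65 ± 3.57 CPM, Sox15 had 6.22 ± 1.32 CPM and Sry and Sox12 were listed at 0, all with too few reads to be tested.

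Genes that work with or downstream of Sox proteins were taken as 4 lists. Of the SoxB neural list 6 of 10 regions fell and 0 rose, with a median log2 fold change of -0.28, among them Pou3f2 (-0.41), Otx2 (-0.38), Dlx2 (-0.36), Pou3f3 (-0.31), Neurog2 (-0.30) and Nes (-0.26). Of the SoxE list 6 of 15 fell and 0 rose, with a median of -0.28, among them the crest regulators Foxd3 (-0.41), Tfap2a (-0.36) and Pax3 (-0.28), Fgf9 of the gonad (-0.35) and Sox6. Of the SoxF list 6 of 12 fell and 0 rose, with a median of -0.23: the vessel and lymphatic genes Dll4 (-0.31), Prox1 (-0.37) and Nr2f2 (-0.31) and the endoderm regulators Gata6 (-0.34), Foxa1 (-0.33) and Foxa2 (-0.32). Of the SoxC list 2 of 4 fell, Gata2 (-0.28) and Isl1 (-0.21). These counts compare with the 1.88% of all regions and the 68.4% of the 250 highest regions given above. Together the lists hold 20 lowered genes. Leaving out 1 library kept 16 to 20 of these calls, the fewest without DKO replicate 2. Libraries with neither Old nor New kept 12 and those with either word 14, and with the trend along the level removed 5 of them were kept (Pou3f2, Otx2, Foxd3, Fgf9 and Prox1). The call was lost in 15 of 21 alternatives at Isl1 and in 12 at Nes. Gata2, like Sox5, lies on chromosome 6, and a difference over that whole chromosome was not tested. At promoter rows Dll4 alone passed among the 4 lists, at -0.46 with SE 0.12 (edgeR adjusted p = 0.0227), and leaving out WT replicate 2, 3 or 5, or any of DKO replicates 2, 3 and 4, ended that call (-0.50 to -0.39). In the other lists the smallest p were at Neurog2 (-0.35) and Otx2 (-0.25), at Fgf9 (-0.35) and Tfap2a (-0.26) and at Isl1 (-0.70) and Gata2 (-0.26), none of which passed. DESeq2 called Neurog2 (adjusted p = 0.0282) and Fgf9 (adjusted p = 0.0244), and of 22 alternatives 5 called Neurog2 and 3 called Fgf9.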

How the data were processed

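H3K27me3 and total H3 were measured by ChIP-seq in 13 libraries. The deposited tables hold raw counts for each promoter row or region. The authors ran featureCounts 2.0.3 for the promoter rows, per the file headers, ignoring strand and giving no read to more than 1 row. Bowtie2, MACS2, bedtools and Subread are named without roles in the submitters' processing notes, with build mm10. How the regions were called was not given in the sources used here, nor whether the tag b6 in library names limits the counts to 1 parental allele.

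The WT and DKO region tables share all regions and were fitted together. Counts were tested over all rows with edgeR 4.0.16 in R 4.3.3 (quasi-likelihood F test, two-sided, filterByExpr with minimum count 10 and minimum total 15, TMM, no covariate), and p-values were adjusted over all rows tested (Benjamini-Hochberg, 0.05). The ratio to total H3 was tested as an interaction term over all 13 libraries. Left out were 38 promoter rows, those of chromosome M and a row that spans most of chromosome Y. The SE is the log2 fold change divided by the root of F. The fits were tested on simulated counts. DESeq2 1.42.0, other scalings, an offset for chromosome 11, an offset for the level (loess, span 0.3), fits within library sets and leaving out each library were alternatives. Figures were drawn with matplotlib 3.10.9 in Python 3.11.15.

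Members and gene lists were chosen with earlier results of these data known, and the scaling without chromosomes 6 and 11 was added after seeing the data. Each member and list gene was named by its row of highest mean level, and of each list the genes past the threshold or else the 2 of smallest p. The values of 1 listed gene are not reported here.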

Additional observations from a re-analysis of the deposited data

How the results depend on the processing

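All 21 alternatives for the regions kept Sox1, Sox14, Sox17 and Sox21 lower in DKO, with log2 fold changes from -0.36 to -0.07. Of 21 alternatives 20 kept the call at Sox1, 19 at Sox14, 19 at Sox21 and 16 at Sox17. Member regions called were 2 of 11 among libraries with neither Old nor New, 2 among those with either word and 5 with the chromosome 11 offset. With 1 library left out they were 3 to 4. With the level offset 1 was called, Sox9 as higher in DKO, and none of the lowered regions. At promoter rows 1 member, Sox14, was called when only rows with a region were tested, and 0 under every other alternative. The cause was not tested, except that the fits within sets use fewer libraries.

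Over all regions 1630 calls became 770 with DESeq2, 146 without Old or New, 692 with either word, 879 with WT of one stem, 929 with the chromosome 11 offset, 834 over shared regions alone and 623 to 2882 with 1 library left out. The share of calls that were higher was 53.5%, and 75.5% with library totals, 66.1% with the level offset, 37.2% with scaling off chromosomes 6 and 11 and 26.9% with the chromosome 11 offset. Over all promoter rows 205 calls became 134 with no filter, 389 with a term for the library sets, 22 without Old or New, 57 with either word, 90 with WT of one stem, 100 with the chromosome 11 offset, 496 over rows with a region and 50 to 253 with 1 library left out. Their higher share was 69.8%, and 47% with the chromosome 11 offset. For total H3 the 4 calls became 0 with DESeq2, 2 with no filter and 0 to 4 with 1 library left out, and for the ratio the 1 call became 5 with the chromosome 11 offset and 0 to 2 with 1 library left out.

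Signs changed for values that had not passed. At promoter rows these were Sox9 (-0.22 with the chromosome 11 offset, -0.0038 to 0.13 with 1 library left out), Sox17 (-0.32 without Old or New, -0.084 to 0.21 with 1 library left out) and Sox21 (0.30 with either word, 0.023 with WT of one stem). At regions they were Sox9 (-0.34) and Sox30 (-0.10) with the chromosome 11 offset, Sox5 (0.025) and the Sox8 region over the gene (0.022) with either word, and the upstream Sox8 region (-0.0026 with no filter, -0.027 with scaling off chromosomes 6 and 11, -0.060 to 0.076 with 1 library left out). In total H3 leaving out 1 library gave -0.21 to 0.085 at Sox14, -0.080 to 0.18 at Sox17 and -0.15 to 0.15 at Sox21. The ratio at Sox9 was 0.026 with library totals.

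Replicate numbers did not pair the libraries: same-numbered WT and DKO libraries had correlations of -0.034 to 0.044 over 5000 rows. Pairs that share a word in their names had higher values. These were 0.085 for WT replicate 4 with DKO replicate 3 (Old) and 0.156 for WT replicate 5 with DKO replicate 4 (New). WT replicate 1 with DKO replicate 2, whose names hold neither word, had 0.16. With the replicate block 963 regions, 109 promoter rows, 5 regions in total H3 and 1 in the ratio were called, member regions called stayed at 4, the Sox4 region did not pass (0.37, edgeR adjusted p = 0.0598), and the upstream Sox8 region stood at -0.063.

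Reads were fewest at low rows such as the Sox17 promoter row, and total H3 had 2 libraries per group.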

Other observations

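The mean log2 level over the lead promoter rows of the Sox genes, centred on each gene, varied between libraries. It was 0.11, 0.13 and 0.15 in WT replicates 1 to 3, and -0.11 and -0.05 in WT replicates 4 and 5, whose names hold Old or New. In DKO it was 0.022 and -0.05 in replicates 1 and 2 and -0.16 and -0.041 in replicates 3 and 4, of which the last pair holds those words. The WT libraries thus spanned more than the members' median log2 fold change of -0.15. With a term for the library sets the member rows kept their directions, with Sox1 at -0.14, Sox14 at -0.23 and Sox11 at 0.20, and 0 of 10 passed.

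Among 14215 other genes with a row at least as high as the lowest member row, the 3 whose levels went most closely with this mean over the 9 libraries were Npr1 (Pearson r = 0.945), Amer2 (0.943) and Prkag2 (0.942). The points share libraries and depth, and this is given as a description.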
